A study of Homo sapiens with 22 samples.

Results

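The genes described here are 10 genes of the mature colon and small intestinal lining: the carcinoembryonic antigen genes CEACAM1, CEACAM5, CEACAM6 and CEACAM7, and KRT20, CDX2, VIL1, CDH17, FABP1 and CA2. They were chosen by name, with earlier results of these data known, and every row with 1 of these symbols was taken. The gene lists further below were also chosen with such results known. Counts of genes set against the share of all genes are therefore descriptions only. Of the 10 genes, 7 matched a row in each of the tables, which list 25244 genes for the HUWE1 experiment and 25791 for the MIZ1 experiment. CEACAM7, FABP1 (a fatty acid carrier of absorptive cells) and CA2 (a cytosolic carbonic anhydrase) matched no row used here, either by symbol or by Ensembl identifier, and were not analysed here.

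RNA was sequenced from Ls174T cells, a human colon carcinoma line that makes mucin, in 8 groups of 2 libraries. In the HUWE1 experiment the groups were shHUWE1 cells with BI8622, shHUWE1 cells with DMSO, vector cells with BI8622 and vector cells with DMSO. shHUWE1 cells carry pLKO with an shRNA against the ubiquitin ligase HUWE1, and vector cells carry empty pLKO. The knockdown was made by lentiviral infection and puromycin selection, and the study's text describes the infected cells as pools. In the MIZ1 experiment all cells carried pIND-shMiz1, an inducible shRNA against the transcription factor MIZ1, and were given BI8622 or DMSO, each with doxycycline (+Dox, 1 µg/ml for 4 days) or without it (-Dox). BI8622 is a small-molecule inhibitor of HUWE1, and the labels give 20 µM for 16 h. No group received doxycycline without carrying the shRNA, so an effect of the drug itself and one of the shRNA cannot be told apart. The study's methods include a sorting step by FACS for MIZ1-depleted cells. Comparisons within an experiment share groups and are not independent of each other.

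CEACAM proteins are immunoglobulin-like adhesion molecules of the cell surface. CEACAM5, the tumour marker CEA, and CEACAM6 are held in the membrane by a lipid anchor, whereas CEACAM1 spans it and carries an inhibitory signalling tail. In the colon they lie on the luminal face of mature cells near the top of the crypt. KRT20 is an intermediate filament keratin of mature intestinal cells, VIL1 (villin) bundles actin in the microvilli of the brush border, and CDH17 (LI-cadherin) joins neighbouring intestinal cells. CDX2 is a homeobox transcription factor that sets intestinal identity and is known to act on CDH17, VIL1 and KRT20.

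The values are group levels in CPM, read counts scaled to a fixed library total. They were solved from mean levels of pairs of groups, as no value per library was used, so the spread between the 2 libraries of a group is not known, no test was possible and no difference below carries a p-value. A difference is called past the fold where levels differed by at least 1.5-fold, which is 0.58 on the log2 scale, and the share of all genes past the fold in the same comparison is given as background. Intervals are 95% counting intervals that cover counting error only. They rest on an estimated depth of 8535690 reads per library for the HUWE1 experiment and 8341400 for the MIZ1 experiment, so a gene at 4 CPM rests on fewer than 100 reads in a group.

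The targeted genes followed the labels. HUWE1 stood at 218 CPM in shHUWE1 cells and 420.2 CPM in vector cells, both in DMSO, and at 176 and 460.2 CPM in the same order with BI8622, so that depletion was partial. ZBTB17, which encodes MIZ1, stood at 10.998 CPM with and 15.7 CPM without doxycycline in DMSO, and at 11.4 and 22.6 CPM in BI8622. The 9 markers of colon epithelium were all matched and summed to between 1964 and 3073 CPM in the HUWE1 experiment and 1935 and 2971 CPM in the MIZ1 experiment. Of 5 leukocyte markers 1 was matched, at 2.78 CPM at most, and of 6 fibroblast markers 2, at a sum of 8.09 CPM at most. Endothelial markers summed to 8.62 CPM at most, with 1 and 2 of 4 matched in the HUWE1 and MIZ1 experiments. Of 7 markers of goblet cells, the mucin-secreting cells, 5 were matched, with sums of 336 to 829 CPM in the HUWE1 experiment and 202 to 395 CPM in the MIZ1 experiment. These sums were mostly AGR2 and MUC2, at 258 and 52.6 CPM in vector cells in DMSO. TFF3 (10.0 CPM), FCGBP (9.43 CPM) and SPINK4 (5.95 CPM) were low there. Since these are bulk libraries, more cells of a type and more RNA per cell cannot be told apart.

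The 7 genes fell into a high and a low set. Compared per kilobase of exon, the levels in vector cells in DMSO were 42.6 CPM per kilobase for CDH17, 31.2 for CDX2 and 13.5 for VIL1, against 1.84 for CEACAM5, 1.75 for KRT20, 0.867 for CEACAM6 and 0.774 for CEACAM1. The counting intervals of CEACAM5 (1.53 to 2.18) and KRT20 (1.34 to 2.25) overlapped, as did those of CEACAM6 (0.646 to 1.16) and CEACAM1 (0.611 to 0.968), so neighbours in each of these pairs were not ordered at this depth. The genes for structure and identity of the intestinal cell thus had the higher levels, and the surface antigens and KRT20 the lower ones.

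CEACAM5, CEACAM6 and CEACAM1 lie on chromosome 19 of GRCh37 (hg19, the build of the files). CEACAM5 (ENSG00000105388) spans bases 42212504 to 42234353 on the plus strand and CEACAM6 (ENSG00000086548) bases 42254885 to 42276116 on the same strand, 20.5 kb further on. CEACAM1 (ENSG00000079385) spans bases 43011456 to 43065386 on the minus strand, 735 kb beyond CEACAM6. Their promoters are shown with that of KRT20 (ENSG00000171431, chromosome 17, bases 39032141 to 39041494, minus strand), because these are the low-level genes that were higher with BI8622. The sequences are those of RefSeq (GRCh38.p14 table, 300 bases around the start), each of which matched GRCh37 exactly at 1 place on its chromosome. For CEACAM6 and CEACAM1 the RefSeq start differs from the start of the span given above. Their windows lie inside the span, away from its outer start. Capitals mark CACGTG, the E-box letters bound by MYC with its partner MAX and by other factors, and TTTATG, letters that CDX factors bind (CATAAA on the other strand). Both strands were searched.
CEACAM5, chr19:42212295-42212594, plus strand: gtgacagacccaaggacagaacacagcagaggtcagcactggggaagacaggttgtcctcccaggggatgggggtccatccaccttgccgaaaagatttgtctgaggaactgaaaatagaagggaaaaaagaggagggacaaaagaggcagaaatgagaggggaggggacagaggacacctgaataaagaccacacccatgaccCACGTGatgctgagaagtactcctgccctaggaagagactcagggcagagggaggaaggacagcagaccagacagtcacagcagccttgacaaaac
CEACAM6, chr19:42259188-42259487, plus strand: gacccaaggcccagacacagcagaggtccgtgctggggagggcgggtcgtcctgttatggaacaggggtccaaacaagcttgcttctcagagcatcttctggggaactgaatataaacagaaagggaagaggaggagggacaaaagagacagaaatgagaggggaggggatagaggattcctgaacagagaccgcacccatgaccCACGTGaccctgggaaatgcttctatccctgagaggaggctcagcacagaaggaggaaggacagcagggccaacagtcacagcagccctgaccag
CEACAM1, chr19:43032584-43032883, minus strand: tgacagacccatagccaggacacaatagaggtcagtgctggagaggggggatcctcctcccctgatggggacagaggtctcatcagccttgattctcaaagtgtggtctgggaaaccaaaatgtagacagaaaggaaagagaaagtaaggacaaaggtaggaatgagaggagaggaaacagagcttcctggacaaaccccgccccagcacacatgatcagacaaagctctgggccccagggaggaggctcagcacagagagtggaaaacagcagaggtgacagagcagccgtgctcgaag
KRT20, chr17:39041445-39041744, minus strand: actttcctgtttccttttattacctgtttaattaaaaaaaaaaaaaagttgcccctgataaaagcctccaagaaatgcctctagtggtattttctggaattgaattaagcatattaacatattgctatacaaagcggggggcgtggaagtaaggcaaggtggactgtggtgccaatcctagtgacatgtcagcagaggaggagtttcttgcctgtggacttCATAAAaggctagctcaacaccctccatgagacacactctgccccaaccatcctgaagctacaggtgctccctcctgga

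The 3 CEACAM promoters were alike: in a global alignment CEACAM5 and CEACAM6 shared 75.9% of columns, CEACAM6 and CEACAM1 69.0%, and CEACAM5 and CEACAM1 66.3%, whereas each shared 45.3% to 46.9% with KRT20. CACGTG was found at bases -46 to -41 from the RefSeq start in CEACAM5 and at -45 to -40 in CEACAM6, and not in the windows of CEACAM1 and KRT20. It was present in 7.43% of 27305 promoters of the same length. CATAAA was found in KRT20 at -29 to -24, and TTTATG or CATAAA in 10.97% of all promoters. These are matches of these exact letters only, and variant letters that the same factors may bind were not searched.

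With BI8622, the 3 CEACAM genes, KRT20 and CDH17 stood at higher levels than with DMSO in vector cells, CEACAM6 only where levels were solved on the linear scale used here, while VIL1 was nearly level and CDX2 lower. CEACAM1 had 11.002 CPM with BI8622 and 4.28 CPM with DMSO, a log2 difference of 1.34 (interval 1.01 to 1.84). CEACAM5 had 14.2 CPM with BI8622 and 7.34 CPM with DMSO, a log2 difference of 0.95 (0.66 to 1.31). CEACAM6, the lowest of the 3, had 5.58 CPM with BI8622 and 2.56 CPM with DMSO, a log2 difference of 1.09 (0.63 to 1.76). On the linear scale all 3 surface antigens were thus past the fold in the same direction. KRT20 had 8.11 CPM with BI8622 and 3.36 CPM with DMSO, a log2 difference of 1.248 (0.87 to 1.83). CDH17 had 343 CPM with BI8622 and 165 CPM with DMSO, a log2 difference of 1.06 (0.99 to 1.12), with the smallest counting error of the 5 as it has the most reads. The filament and adhesion genes thus stood in the same direction as the surface antigens. VIL1 had 102 CPM with BI8622 and 92.9 CPM with DMSO, and its log2 difference of 0.13 (0.03 to 0.23) did not reach the fold. CDX2 had 79.4 CPM with BI8622 and 109.8 CPM with DMSO, and its log2 difference of -0.47 (-0.57 to -0.37) did not reach it either.

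In that comparison 5 of 7 genes were past the fold upward and 0 downward. Of all 24715 genes of at least 1 CPM, 9.78% were past the fold upward and 5.53% downward, and among genes of 2 to 20 CPM, where the CEACAM genes and KRT20 lie, 12.2% were past it upward. The median log2 difference was 1.06 over the 7 genes and 0.02 over all genes. The values of CEACAM5 and CEACAM6 in this comparison depend on the scale on which levels were solved: taken as means of log2 levels, the deposited pair means gave log2 differences of 0.11 and -0.33. In the MIZ1 table, where 5 pair means fix 4 groups and the reading can be checked, the linear scale used here left a residual of at most 0.344% for the 7 genes and the log2 scale one of up to 8.75%. Some goblet cell markers also stood higher with BI8622: 2 of 5 were past the fold upward in vector cells and 0 downward. FCGBP had 18.5 CPM with BI8622 and 9.43 CPM with DMSO (0.96) and MUC2 81.7 and 52.6 CPM (0.64). AGR2 was level at 256 and 258 CPM (-0.01), and SPINK4 (0.27) and TFF3 (0.41) stayed within the fold. The part of goblet markers in the differences of the 7 genes was not tested.

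shHUWE1 cells also had higher levels of these genes with BI8622 than with DMSO. CEACAM1 had 13.3 CPM with BI8622 and 7.35 CPM with DMSO, a log2 difference of 0.85 (0.56 to 1.21). CEACAM5 had 34.3 CPM with BI8622 and 19.4 CPM with DMSO, a log2 difference of 0.82 (0.63 to 1.03). CEACAM6 had 15.7 CPM with BI8622 and 10.7 CPM with DMSO, and its log2 difference of 0.55 (0.29 to 0.85) fell short of the fold, which it passed when solved on the log2 scale (0.92). The levels of the lipid-anchored pair were highest in cells with both the shRNA and the inhibitor. CEACAM5 was there at 4.67-fold and CEACAM6 at 6.12-fold the level of vector cells in DMSO. This was not particular to that pair: CEACAM1 (3.11-fold), KRT20 (2.82-fold) and VIL1 (1.30-fold) were also highest in these cells. KRT20 had 9.48 CPM with BI8622 and 4.46 CPM with DMSO, a log2 difference of 1.07 (0.72 to 1.56). CDH17 had 309.7 CPM with BI8622 and 169 CPM with DMSO, a log2 difference of 0.87 (0.81 to 0.94). As in vector cells, the brush border gene and the transcription factor stayed within the fold. VIL1 had 120.4 CPM with BI8622 and 108 CPM with DMSO, a log2 difference of 0.16 (0.07 to 0.25). CDX2 had 96.2 CPM with BI8622 and 113 CPM with DMSO, a log2 difference of -0.23 (-0.33 to -0.14). Hence 4 of 7 genes were past the fold upward and 0 downward, against 6.22% and 6.34% of all genes. Of the goblet markers 0 of 5 were past the fold in either direction here, with a median log2 difference of 0.22.

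The log2 difference with BI8622 was lower in shHUWE1 cells than in vector cells for 5 of the 7 genes, but the counting intervals of that difference included 0 for CEACAM1 (-0.49, -1.01 to 0.02), CEACAM5 (-0.13, -0.50 to 0.24), CEACAM6 (-0.54, -1.14 to 0.06) and KRT20 (-0.18, -0.79 to 0.43). For CDH17 the difference of responses was -0.18 (-0.27 to -0.09) and for CDX2 0.23 (0.09 to 0.37), both of them outside counting error and nearer to 0 in shHUWE1 cells. VIL1 gave 0.03 (-0.10 to 0.16). The direction for CEACAM5, CEACAM6 and KRT20 depends on the scale. Solved on the log2 scale, the difference of responses was 1.16 for CEACAM5, 1.254 for CEACAM6 and 0.09 for KRT20, so that 2 of the 7 genes, CEACAM1 (-0.05) and CDH17 (-0.22), had the lower value in shHUWE1 cells. Without the spread between libraries none of these differences was tested.

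**Figure D1:**
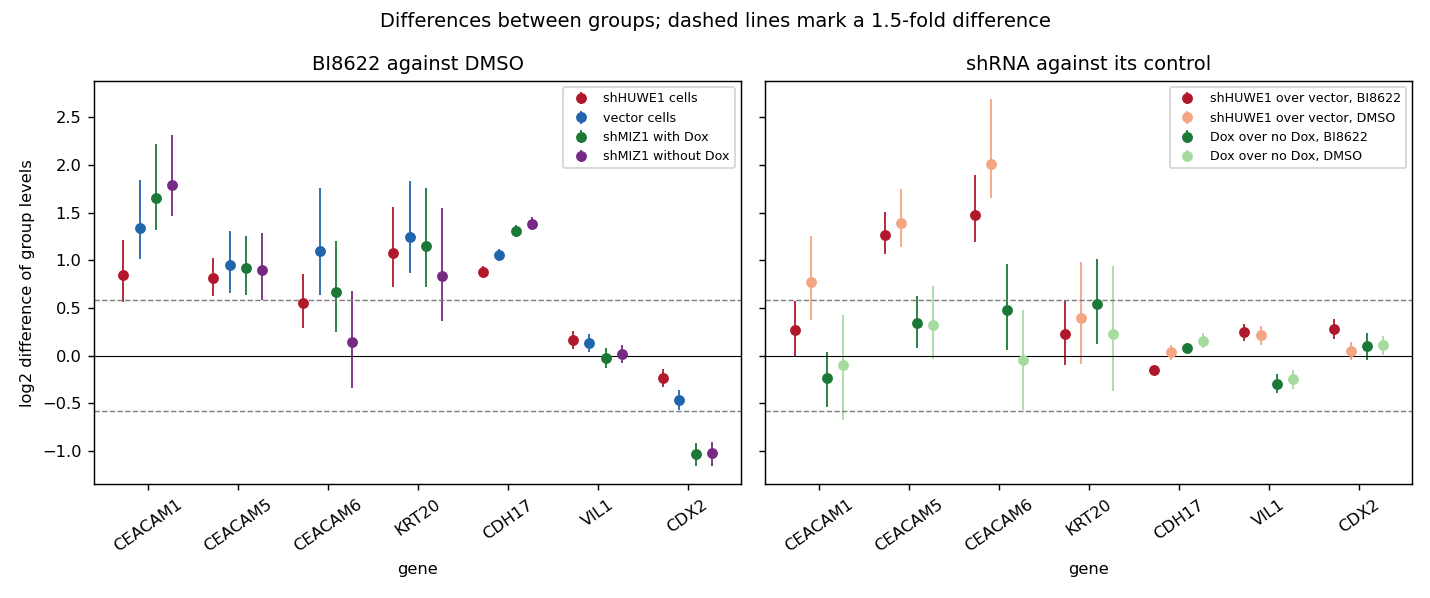
Log2 difference of group levels for the 7 genes, with 95% counting intervals and levels solved on the linear scale, for BI8622 over DMSO in 4 cell settings (left) and for each shRNA over its control (right); dashed lines mark 1.5-fold. CEACAM1, CEACAM5, KRT20 and CDH17 lie above the upper line in all 4 settings on the left, and on the right CEACAM5 and CEACAM6 lie above it in both shHUWE1 comparisons, with no gene past a line with doxycycline.

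Between shHUWE1 and vector cells in DMSO, CEACAM5 and CEACAM6 differed by more than the 4 members outside the CEACAM family. CEACAM1 had an interval that overlapped that of KRT20. CEACAM6 had 10.7 CPM in shHUWE1 cells and 2.56 CPM in vector cells, a log2 difference of 2.01 (1.65 to 2.69). CEACAM5 had 19.4 CPM in shHUWE1 cells and 7.34 CPM in vector cells, a log2 difference of 1.39 (1.13 to 1.75). CEACAM1 had 7.35 CPM in shHUWE1 cells and 4.28 CPM in vector cells, a log2 difference of 0.77 (0.37 to 1.26). These 3 genes were past the fold and the other 4 were not. KRT20 had 4.46 CPM in shHUWE1 cells and 3.36 CPM in vector cells, and its interval included 0 (0.40, -0.09 to 0.98). CDH17, which stood 2.08-fold higher with BI8622 in vector cells, had 169 CPM in shHUWE1 cells and 165 CPM in vector cells (0.03, -0.04 to 0.11). CDX2 gave 0.04 (-0.05 to 0.14) and VIL1 0.21 (0.11 to 0.31). So 3 of 7 genes were past the fold upward and 0 downward, where 3.52% of all genes were past it upward and 1.45% downward. These values depend on the scale as well: solved on the log2 scale, CEACAM6 gave 1.04, CEACAM5 0.73 and CEACAM1 0.46, which leaves 2 of 7 genes past the fold.

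With BI8622 in both arms, CEACAM6 had 15.7 CPM in shHUWE1 cells and 5.58 CPM in vector cells, a log2 difference of 1.48 (1.19 to 1.90). CEACAM5 had 34.3 CPM in shHUWE1 cells and 14.2 CPM in vector cells, a log2 difference of 1.26 (1.06 to 1.51). CEACAM1 was no longer past the fold, with 13.3 CPM in shHUWE1 cells and 11.002 CPM in vector cells (0.27, -0.01 to 0.57). The other 4 genes gave log2 differences of between -0.15 (CDH17) and 0.28 (CDX2). Thus 2 of 7 genes were past the fold upward and 0 downward, against 1.91% and 2.54% of all genes. Solved on the log2 scale, CEACAM6 gave 2.30 and CEACAM5 1.89 in this comparison. Of the goblet markers, 3 of 5 were past the fold upward and 0 downward in shHUWE1 against vector cells in DMSO. There 3.52% of all genes were past it upward and 1.45% downward. MUC2, the main intestinal mucin, had 343 CPM in shHUWE1 cells and 52.6 CPM in vector cells in DMSO. The part of these in the CEACAM differences was not tested. The labels name 1 shRNA construct, carried by separately infected cells, so the loss of HUWE1 and other differences between the infected pools cannot be told apart.

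**Figure D2:**
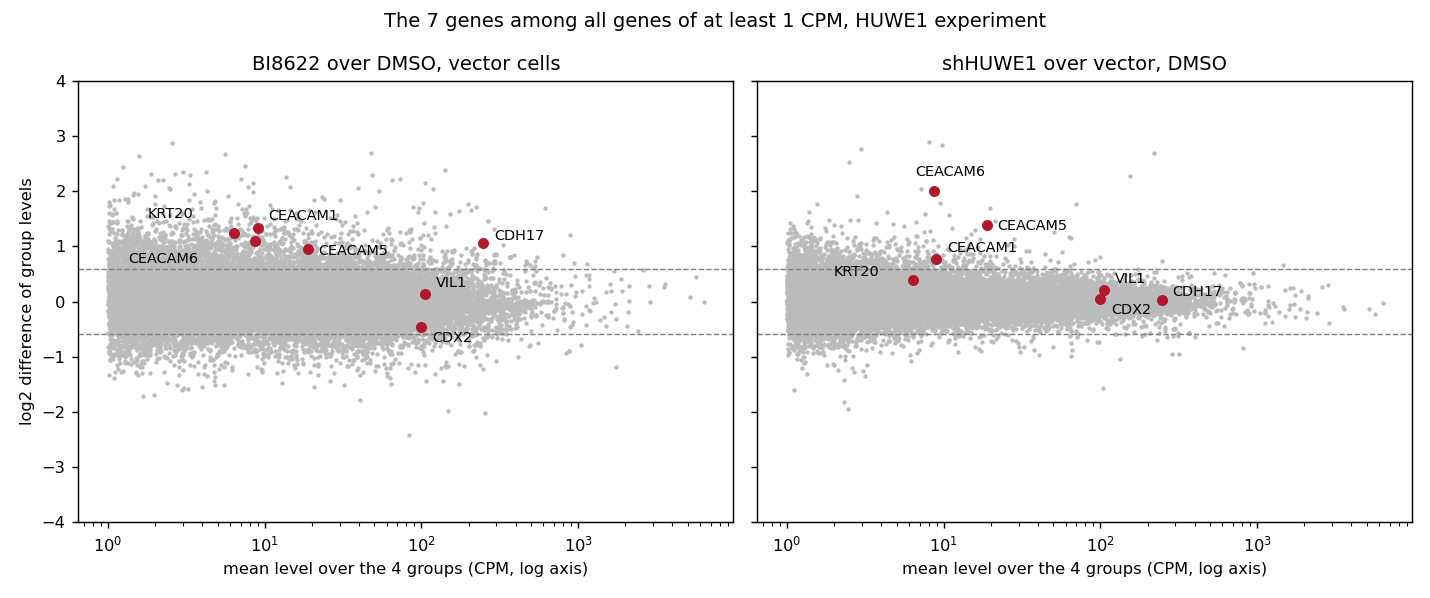
Log2 difference against mean level (CPM, log axis) for the 24715 genes of at least 1 CPM in the HUWE1 experiment (grey) and for the 7 genes (red), for BI8622 over DMSO in vector cells (left, 2 genes outside the axis not drawn) and shHUWE1 over vector in DMSO (right). CEACAM5 and CEACAM6 stand above the bulk of genes of like level on the right, where CDH17 and CDX2 lie near 0.

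In the MIZ1 experiment, BI8622 gave the same direction for CEACAM1, CEACAM5, KRT20 and CDH17, while CDX2 was past the fold downward. The levels of that experiment were made in a table of their own and are set beside those above only as values. With doxycycline, CEACAM1 had 11.4 CPM with BI8622 and 3.56 CPM with DMSO, a log2 difference of 1.65 (1.32 to 2.22). Without doxycycline it had 13.5 CPM with BI8622 and 3.82 CPM with DMSO, a log2 difference of 1.79 (1.46 to 2.32). CEACAM1 thus had the largest log2 difference of the 7 genes in both arms. Its interval overlapped those of CDH17 and KRT20 with doxycycline, and that of KRT20 without it, so these were not ordered at this depth. CEACAM5 had 15.5 CPM with BI8622 and 8.19 CPM with DMSO with doxycycline, a log2 difference of 0.91 (0.63 to 1.253), and 12.3 and 6.54 CPM without it, a log2 difference of 0.90 (0.58 to 1.28). CEACAM6 had 6.33 CPM with BI8622 and 3.96 CPM with DMSO with doxycycline, a log2 difference of 0.67 (0.25 to 1.20). Without doxycycline it had 4.54 CPM with BI8622 and 4.09 CPM with DMSO, a log2 difference of 0.15 (-0.34 to 0.68). CEACAM6 was at fewer than 10 CPM in all 4 groups, and its difference without doxycycline was within counting error.

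KRT20 had 6.73 CPM with BI8622 and 2.98 CPM with DMSO with doxycycline, a log2 difference of 1.15 (0.72 to 1.76), and 4.61 and 2.54 CPM without it, a log2 difference of 0.84 (0.36 to 1.55). CDH17 had 401 CPM with BI8622 and 162 CPM with DMSO with doxycycline, a log2 difference of 1.30 (1.24 to 1.37). Without doxycycline CDH17 had 380.0 CPM with BI8622 and 146 CPM with DMSO, a log2 difference of 1.38 (1.32 to 1.45). Both genes had higher levels in each arm with the inhibitor. VIL1, the microvillus protein, had 86.1 CPM with BI8622 and 87.5 CPM with DMSO with doxycycline (-0.02, -0.13 to 0.08) and 105.5 and 104.2 CPM without it (0.02, -0.08 to 0.12). CDX2 had 50.1 CPM with BI8622 and 103 CPM with DMSO with doxycycline, a log2 difference of -1.03 (-1.16 to -0.92). Without doxycycline CDX2 had 46.9 CPM with BI8622 and 95.4 CPM with DMSO, a log2 difference of -1.02 (-1.15 to -0.90). CDX2 was therefore lower by 2.05-fold and 2.04-fold in these arms, in the same groups in which CDH17 and KRT20 were higher.

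With doxycycline 5 of 7 genes were past the fold upward (12.4% of 25252 genes) and 1 downward (10.6%). Without doxycycline 4 of 7 were past it upward (14.7%) and 1 downward (11.2%). Over both arms together 4 of 7 were past it upward and 1 downward, against 12.6% and 10.1% of all genes, with a median log2 difference of 0.91 over the 7 genes and 0.02 over all genes. CEACAM6 gave 0.42 (0.13 to 0.81) there and was the gene that passed the fold in 1 arm and not over both. The background shares were larger in this experiment than in the HUWE1 experiment, and the counts are to be read against them. Of the goblet markers 3 of 5 were past the fold upward over both arms and 0 downward, MUC2 at 115 CPM with BI8622 and 50.4 CPM with DMSO (1.19), FCGBP at 16.9 and 9.13 CPM (0.88) and AGR2 at 230.8 and 143 CPM (0.69), and their part in these differences was not tested.

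Doxycycline, which induces the shRNA against MIZ1, left all 7 genes within the fold. In DMSO the log2 differences ran from -0.25 for VIL1 to 0.32 for CEACAM5, and 1.93% of all genes were past the fold upward and 1.2% downward. In BI8622 they ran from -0.29 for VIL1 to 0.54 for KRT20, and 1.41% of all genes were past the fold upward and 1.73% downward. Over both treatments KRT20 had 4.86 CPM with and 3.57 CPM without doxycycline (0.43, 0.11 to 0.84), CEACAM5 11.9 and 9.39 CPM (0.33, 0.13 to 0.57), and VIL1 86.8 and 104.9 CPM (-0.27, -0.35 to -0.20), with 0.673% of all genes past the fold upward and 0.523% downward. The response to BI8622 with doxycycline minus that without it had a counting interval that included 0 for all 7 genes, from -0.14 (-0.73 to 0.46) for CEACAM1 to 0.52 (-0.15 to 1.19) for CEACAM6. ZBTB17 was reduced only in part, to 0.701-fold in DMSO and 0.507-fold in BI8622.

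Other gene models overlap the members, and the sources used here do not say how reads in such overlaps were counted, nor whether strand was used. ENSG00000267881, on the same strand, runs from base 42212576, within CEACAM5, to base 42260645, within CEACAM6, of chromosome 19. It had 22.6 CPM in shHUWE1 cells and 8.14 CPM in vector cells in DMSO, close to CEACAM5 itself. ENSG00000268833, on the opposite strand, runs from base 42261806 to 42290801 across part of CEACAM6 and had 8.81 CPM in shHUWE1 cells and 2.05 CPM in vector cells in DMSO, again close to its partner. Whether reads of 1 locus were counted for several models was not tested, so it is uncertain which transcript the CEACAM5 and CEACAM6 values stand for. CEACAM genes are also alike in sequence, so reads may have been split between them. CEACAM1 is overlapped on the opposite strand by ENSG00000213904 (32.4 CPM in vector cells in DMSO) and VIL1 at its end by ENSG00000135913 (45.9 CPM there).

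Around the pair, 11 other genes of at least 1 CPM lie within 250 kb in both tables. Of these, only the 2 overlapping models were past the fold upward in shHUWE1 cells in DMSO, where 3.52% of all genes were. Of these 11, the CEACAM family gene CEACAM21, 157 kb before CEACAM5, had 8.84 CPM in shHUWE1 cells and 12.0 CPM in vector cells (-0.44), and the ribosomal protein gene RPS19, 152 kb after the start of CEACAM5, had 331 and 284 CPM (0.22). The median over the 11 genes was -0.04. Of the 9 other CEACAM genes looked for, 5 were matched in the HUWE1 experiment and 3 reached 1 CPM. CEACAM19, at 35.4 CPM with BI8622 and 41.2 CPM with DMSO in vector cells, CEACAM21 and the pseudogene CEACAM22P gave log2 differences of between -0.28 and -0.05 with BI8622. Thus 0 of 3 were past the fold, where 9.78% of all genes were past it upward and 5.53% downward. Over both doxycycline arms 1 of 3 was, CEACAM22P, with 3.04 CPM with BI8622 and 1.84 CPM with DMSO (0.69). There 12.6% of all genes were past the fold upward and 10.1% downward, and 3 genes are too few to set against these shares. CEACAM3 (1.02 and 0.491 CPM) and CEACAM8 (0.495 and 0.277 CPM), known from granulocytes, were too low to be counted in the HUWE1 experiment.

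Lists of other intestinal genes behaved unevenly with BI8622. Their counts are set against all genes, of which 9.78% were past the fold upward and 5.53% downward in vector cells, and 12.6% and 10.1% over both doxycycline arms. Of digestive and transport proteins of enterocytes, 12 of 23 were counted in vector cells, 7 of them past the fold upward and 0 downward, with a median log2 difference of 0.90. The neutral amino acid carrier SLC6A19 had 67.9 CPM with BI8622 and 10.4 CPM with DMSO (2.69), the disaccharide-cleaving enzyme gene MGAM 5.36 and 1.00 CPM (2.31) and the sodium-proton exchanger SLC9A3 323 and 98.3 CPM (1.71). The peptidase gene MEP1B, at 3.01 and 4.24 CPM (-0.48), and PHGR1, at 11.9 and 15.8 CPM (-0.41), were the lowest. In the MIZ1 experiment, over both arms, 4 of 12 were past the fold upward and 1 downward. The median was 0.02, equal to that of all genes to 2 decimals. The 12 counted genes are not the same in the 2 experiments, so these counts and medians do not compare like with like. MEP1A (1.33 and 0.649 CPM) and ANPEP (1.28 and 0.638 CPM), past the fold upward in vector cells at low levels, were not counted in the MIZ1 experiment. SLC15A1 and SLC26A3 were counted only in the MIZ1 experiment. There MGAM gave 2.47, SLC6A19 2.39 and SLC9A3 2.33, and PHGR1 -1.29.

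Of the brush border genes, the class to which VIL1 belongs, 13 of 14 were counted, and 3 were past the fold upward and 0 downward in vector cells (median 0.14), where 9.78% and 5.53% of all genes were. These were the myosin gene MYO7B, with 21.7 CPM with BI8622 and 7.84 CPM with DMSO (1.46), and the intermicrovillar protocadherins CDHR5 (10.6 and 5.70 CPM, 0.88) and CDHR2 (3.39 and 2.14 CPM, 0.64). The scaffold gene SLC9A3R1 (82.9 and 103 CPM, -0.31) and ANKS4B (10.3 and 11.7 CPM, -0.19) were the lowest. Over both doxycycline arms the same 3 genes were past the fold upward, at 2.15, 1.32 and 1.38, and ANKS4B was past it downward at -0.71, where 12.6% and 10.1% of all genes were past it. The genes that work with the protocadherins were not uniform, since USH1C (harmonin), a scaffold of the same complex, gave 0.03 in vector cells and 0.19 over both arms. Like VIL1, the actin-bundling genes PLS1, ESPN and ACTN4 were within the fold. PLS1 gave 0.47 in vector cells and 0.21 over both arms, ESPN 0.27 and 0.32, and ACTN4 0.14 and 0.49.

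Among intestinal transcription factors, 19 of 22 were counted, with 5 past the fold upward and 1 downward in vector cells (median 0.19; all genes 9.78% and 5.53%) and 2 upward and 1 downward over both doxycycline arms (median 0.15). With 19 genes, the counts over both arms are too small to set apart from the shares of all genes (12.6% and 10.1%). CDX1, the close relative of CDX2, was the lowest in both, with 37.1 CPM with BI8622 and 61.1 CPM with DMSO in vector cells (-0.72) and 16.6 and 59.4 CPM over both arms (-1.83). Hence both CDX genes had lower levels with BI8622, CDX1 by more. The highest were ELF3, an epithelial ETS factor (23.9 and 13.8 CPM, 0.79), and ISX, an intestinal homeobox gene (2.83 and 1.63 CPM, 0.76), in vector cells, and PPARA (139 and 83.5 CPM, 0.73) and PPARG (152 and 97.6 CPM, 0.64), nuclear receptors of lipid metabolism, over both arms. HNF4A, a nuclear receptor of intestinal and liver cells, gave 0.13 in each.

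Of simple epithelial keratin and junction genes, 15 of 16 were counted, with 4 past the fold upward and 0 downward in vector cells (median 0.32) and 6 upward and 1 downward over both arms (median 0.21), against 9.78% and 5.53% of all genes in vector cells and 12.6% and 10.1% over both arms. The highest in vector cells was KRT7, at 3.27 and 1.98 CPM (0.69), which was also the highest over both arms (1.28). KRT8 and KRT18, the partner keratins of simple epithelia, had 1010.3 and 625.6 CPM (0.69) and 548 and 352 CPM (0.64) with BI8622 and with DMSO in vector cells, so that KRT20 was not the only keratin gene with a higher level. CGN, of tight junctions, was the lowest, at -0.36 in vector cells and -0.83 over both arms. Genes of lipid handling were mostly level: 2 of 9 counted were past the fold upward in vector cells (median 0.04) and 1 over both arms (median 0.01), the last about the share of all genes, 12.6%. The other gene past the fold in vector cells was RBP2, a retinol carrier (2.44 and 1.01 CPM, 1.20), and the lowest were FABP6 at -0.31 in vector cells and CD36 at -0.42 over both arms. MTTP, which loads lipid onto lipoproteins, was the highest in both, with 5.41 CPM with BI8622 and 2.04 CPM with DMSO in vector cells (1.36) and 7.17 and 2.11 CPM over both arms (1.72). Of carbonic anhydrases, the family of CA2, 8 of 10 were counted. CA1 (3.98 and 1.46 CPM, 1.39) and CA3 (6.95 and 3.82 CPM, 0.85) were past the fold upward and CA9 (5.79 and 9.80 CPM, -0.75) downward in vector cells. CA1 was not past the fold over both arms (1.12 and 1.02 CPM, 0.12) and was lower with BI8622 in shHUWE1 cells (1.75 and 2.63 CPM, -0.56). Over both arms CA3 gave 0.72, CA11 -0.74 and CA9 -1.50, the family's largest difference. In vector cells the median was -0.03, and over both arms -0.25.

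Over the 8 groups, the genes whose log2 profile lay nearest to that of CEACAM5 were looked for among 12945 named genes of at least 5 CPM in all groups, by the root mean square distance after centring within each experiment. They were SLC6A20 (distance 0.20), LIPH (0.20), DUSP6 (0.26), KRT18P33 (0.27) and ZBTB7C (0.28). SLC6A20, an amino acid transporter, had 107 CPM in shHUWE1 cells with BI8622, 63.3 CPM in shHUWE1 cells with DMSO, 61.9 CPM in vector cells with BI8622 and 28.5 CPM in vector cells with DMSO. Its likeness to CEACAM5 over these groups follows from how it was chosen and is no separate result. Of the members, CEACAM6 was nearest to CEACAM5 (0.26), followed by KRT20 (0.38) and CEACAM1 (0.45), and CDX2 was farthest (0.92). Nearest to KRT20 were EMP1 (0.11), SYTL2 (0.12), LEMD1 (0.14), OSTM1 (0.16) and KIAA1551 (0.16). EMP1, an epithelial membrane protein gene, had 13.7 CPM with BI8622 and 5.82 CPM with DMSO in vector cells (1.22) and gave 0.47 in shHUWE1 cells against vector cells in DMSO. CDH17 was the member nearest to KRT20 (0.22). These distances use the linear scale. The profiles of CEACAM5 and KRT20 parted in shHUWE1 cells, where the level in DMSO was 2.65-fold that of vector cells for CEACAM5 and 1.33-fold for KRT20.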

How the data were processed

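Poly-A RNA of Ls174T cells was read on a Genome Analyzer IIx (Illumina). Libraries were made with either of 2 kits, and which library had which kit is not stated. According to the study's methods and the submitters' processing notes, reads were aligned to hg19 with Bowtie 0.12.8, and the authors compared pairs of groups with edgeR. The deposited tables hold, for each pair of groups, the authors' log2 fold change, mean log2 CPM, p-value and adjusted p-value. Only the deposited mean log2 CPM values were used here, 4 pairs in the HUWE1 table and 5 in the MIZ1 table; the fold changes and p-values are the authors' own comparisons and were not used. How reads were counted and how weakly expressed genes were filtered: not given in the sources used here.

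Group levels were solved by least squares on the linear CPM scale, taking each pair mean as the mean of its 2 groups. In the MIZ1 table, which has 1 pair more than needed, the median residual was 0.0300% for genes of at least 5 CPM. Log2 differences were taken after adding 0.1 CPM, and genes of at least 1 CPM were counted. Depth was estimated from how far the CPM totals exceed the scaled library total, assuming 2 added reads per gene and library; the lowest value listed for doxycycline in DMSO (0.2315 CPM) gives 8639310 reads in the same way. Counting intervals are exact (Poisson for levels, Clopper-Pearson for ratios), except that those of differences of responses use a normal approximation. The 2 libraries of a group are not stated to be separate cultures. The route was tested on simulated data.

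The members and gene lists were chosen with earlier results of these data known. Any gene of a list could be named, the highest and lowest of at least 1 CPM first, and the 5 nearest profiles of CEACAM5 and KRT20. Alternatives were other folds, filters, pseudocounts, centring, the log2 scale, pair means left out and another gene length. Exon lengths and positions are from GENCODE lifted to GRCh37. Levels were computed with numpy 2.4.6, pandas 2.3.3, scipy 1.17.1. The ChIP libraries were not analysed here.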

Additional observations from a re-analysis of the deposited data

How the results depend on the processing

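No paired analysis was possible because the values used are means over pairs of groups and carry no replicate number; for the same reason no replicate could be left out, and the spread between libraries is unknown. Of 245 member differences recomputed under an alternative, 1 changed sign: CEACAM6 with BI8622 in vector cells gave -0.33 when solved on the log2 scale. Under that scale 3 of 7 genes, in place of 5, were past the fold in vector cells. A further 11 single values moved beyond their counting interval without changing sign, 7 of them on that scale: CEACAM5 gave 0.11 with BI8622 in vector cells, 1.27 in shHUWE1 cells and 0.73 in shHUWE1 against vector cells in DMSO, CEACAM6 0.92 and 1.04 in the last 2 of these, and CDH17 1.01 with BI8622 in shHUWE1 cells and 1.23 in vector cells. With a fold of 2, 1 gene in place of 4 was past it with BI8622 in shHUWE1 cells, and with a lower fold (0.32 on the log2 scale), 2 genes in place of 0 were past it with doxycycline over both treatments. With the longest transcript as length, the median level was 2.10 CPM per kilobase in place of 1.84, and CEACAM1 (1.23) moved above CEACAM6 (0.988). The other 52 summary values stayed within 1.5 times of those reported, including those with the CPM of the added reads subtracted, an alternative chosen after seeing the data. Leaving out a pair mean could not be solved in 10 cases, all in the HUWE1 experiment, so levels there have no residual to check. The CPM totals of its pair means ran from 1.00587e+06 to 1.00593e+06. The depth estimate takes these as totals of linear means, and the scale was not tested further there. Depth limits KRT20 and the CEACAM genes most, with an estimated 38 reads for KRT20 in DMSO without doxycycline and 40 for CEACAM6 in vector cells in DMSO.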
